A study of Arabidopsis thaliana with 8 samples.

Results

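The expanding leaves 1 and 2 of young Arabidopsis thaliana plants were compared with vegetative shoot apices that carry the same day in their titles. The comparison took in the 4 arrays titled EL_14DAS (expanding leaves, 2 arrays) and Apex_14DAS (apices, 2 arrays), of 8 arrays in the series, and all 22746 non-control probe sets of the 22810 on the Affymetrix ATH1 array. All plants were Landsberg erecta, raised on soil at 20 °C with a day length of 10 h, and their total RNA was prepared with an RNeasy kit. For the expanding leaves, day 14 stands only in the title. The other 4 arrays, mature leaves of day 35 (ML_35DAS) and younger apices (Apex_5DAS, day 5 by title and day 7 by source name), served to estimate the spread and to follow the same genes on other arrays. Arrays are called first and second after the number in their titles. Nothing in the labels ties the 2 arrays of a group to separate plants, so the p-values measure only the spread between these arrays, which may be technical.

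A shoot apex holds the meristem, where cells are made, together with the youngest leaf primordia. A leaf blade leaves cell division behind from tip to base while its cells enlarge, build chloroplasts and start to export sugar. Leaves also hold guard cells and trichomes, whose lineages begin while the blade is still dividing. In bulk tissue, fewer cells of a type and less RNA per cell cannot be told apart.

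Of the 22746 probe sets, 17837 were bright enough to be tested, and 10027 of these carried 1 gene name. Values are scaled intensities, and changes are log2 differences of intensity + 7.7, expanding leaves minus apices, with 2 arrays a group. Their standard error (SE) rests on the spread within all 4 groups of the 8 arrays, not on these 2 groups alone. Adding 7.7 to each intensity shrinks the change of dim genes. A probe set passed when its limma p-value, after Benjamini-Hochberg adjustment across these 17837, was under 0.05. The 2 arrays of a group resembled each other with a Pearson r of 0.956 for expanding leaves and 0.962 for apices. These were taken across probe sets, which are not independent of each other, and 6.66% and 4.71% of them differed more than 2-fold. The other groups also enter each SE. For younger apices r was 0.924 with 12.5% over 2-fold, and for mature leaves 0.982 with 2.43%.

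In all, 1334 probe sets passed (7.48% of those tested). In the leaves, 3.18% of those tested were higher and 4.3%, or 767 probe sets, were lower. The largest differences lay on the side of the apices. A difference of at least 8-fold was reached by 8 probe sets that were higher and 53 that were lower in leaves, and no increase but 18 decreases exceeded 4 on the log2 scale. The split rests on the scaling of the arrays. With the medians of all arrays set equal, as in the deposited table, the median change of all probe sets moved from -0.06 to 0.08, a shift of 0.146, and 720 probe sets were higher and 542 lower, so that higher calls made up 57.1% in place of 42.5%. Of the calls, 180 (1.01% of the probe sets tested) held in direction and threshold under all 18 alternatives, leaving out each of the 8 arrays included, with groups that did not overlap. These held calls were 51 higher and 129 lower, and 79 of them carried a gene name. The 2 groups did not overlap for 55.7% of all probe sets tested, so a lack of overlap alone says little. At an unadjusted p under 0.05, 1700 of the 17837 probe sets were higher and 2276 lower. Changes were above 0 for 8013 and below 0 for 9824, or for 10206 and 7631 with equal medians. Counts of these kinds given for a list are to be read beside these.

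**Figure D1:**
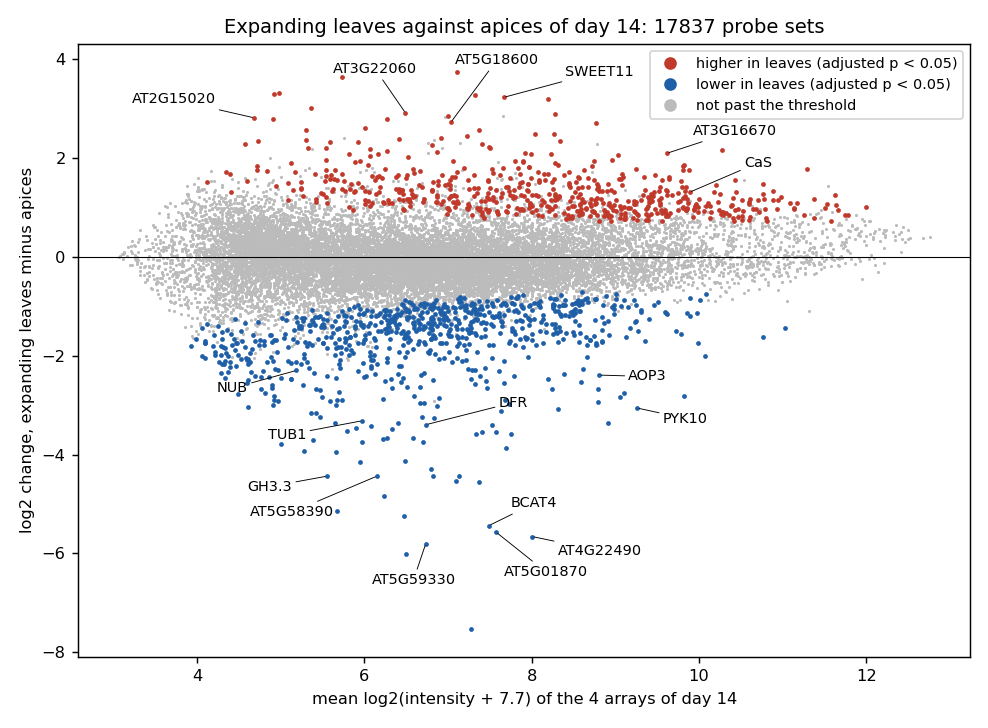
Change of each of 17837 tested probe sets (vertical axis, log2 expanding leaves minus apices) against its mean level on the 4 arrays of day 14 (horizontal axis, log2 of intensity + 7.7), in red where higher and in blue where lower in leaves with an adjusted p under 0.05. The decreases reach below -5 while no increase exceeds 4.

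Genes of glucosinolate metabolism were lower in expanding leaves. Glucosinolates are sulphur-rich defence compounds of the cabbage family, built on elongated methionine in their aliphatic form. Of 8 genes tested in this group, 5 were lower, none was higher and 3 did not pass. Of all probe sets 4.3% were lower and 3.18% higher. The list had a median change of -1.78, against -0.06 over all probe sets. BCAT4, the aminotransferase that starts methionine chain elongation, had intensities of 45.9 and 6.24 in expanding leaves and of 1806 and 764 in apices. The groups lay far apart, and each was uneven. Its mean log2 level was 4.77 ± 1.37 in leaves and 10.21 ± 0.87 in apices (SD, n = 2), a change of -5.43 ± 0.59 (SE, limma adjusted p = 0.0010). AOP3, which modifies the side chain, stood at 215 and 165 in leaves and at 1537 and 676 in apices and fell by 2.39 ± 0.33 (limma adjusted p = 0.0036).

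GSTU20, a glutathione transferase tied to the core structure of these compounds, had 735 and 382 in leaves and 2615 and 1749 in apices. It fell by 2.00 ± 0.36 (limma adjusted p = 0.011). The call was lost, with adjusted p up to 0.077, when the first apex array or the second expanding-leaf array was left out. The glucosyltransferase UGT74B1, chosen for mention after its values were seen, had 266 and 107 in leaves and 623 and 431 in apices, a change of -1.57 ± 0.36 (limma adjusted p = 0.030). It was at -0.94 without the second expanding-leaf array and lost its call without that array, either apex array or either mature-leaf array, without a filter, without an intensity trend and with only the 2 groups fitted (adjusted p up to 0.167). The transporters GTR1 and GTR2, which move glucosinolates between tissues, changed by 0.33 and -0.10, and AOP1 by -0.50, and none of these passed. Without 1 array the number of lower members ran from 3, without the first apex array or the second expanding-leaf array, to 5.

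The fifth lower member was PYK10, a beta-glucosidase stored in endoplasmic reticulum bodies and able to cleave indole glucosinolates. It had 173 and 244 in expanding leaves and 1418 and 2204 in apices and fell by 3.06 ± 0.27 (limma adjusted p = 0.00027). Jacalin-related lectins, several of which assemble with PYK10 when cells break, fell beside it. JAL22 had 12.2 and 28.4 in leaves and 315 and 351 in apices, a change of -3.67 ± 0.30 (limma adjusted p = 0.00017). JAL34 had 104 and 78.5 in leaves and 330 and 526 in apices, and JAL33 had 74.3 and 74.7 in leaves and 208 and 289 in apices. JAL34 fell by 2.11 ± 0.27 and JAL33 by 1.62 ± 0.31 (limma adjusted p = 0.0024 and 0.014), and the call of JAL33 was lost without the second apex array or either expanding-leaf array (adjusted p up to 0.135). The lectins were the 3 lower members of a list of 11 jasmonate-related genes, against 4.3% of all probe sets lower and 3.18% higher. That list had 1 higher member, the transcription factor ORA47, at 54.9 and 94.3 in leaves and 31.5 and 16.4 in apices, a call lost without any array of day 14 or of mature leaves, without a filter, without an intensity trend or with only the 2 groups fitted (adjusted p up to 0.292).

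PYK10 is also abundant in roots, so the root markers were read beside it. Of 15 root markers, 3 had a named probe set, with a summed intensity of 229 and 283 in leaves and of 1458 and 2225 in apices, most of it from PYK10. The root-hair expansins were dim. EXPA7 had 44.0 and 23.3 in leaves and 18.5 and 3.95 in apices, and EXPA18 had 11.9 and 15.9 in leaves and 21.9 and 17.2 in apices. Neither passed, with limma adjusted p = 0.198 and 0.684.

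Lipid-transfer proteins, small secreted proteins of the cell wall and cuticle, held 3 of the 4 largest named decreases. Most of their list, which took in related small cysteine-rich proteins, did not pass. Of 26 tested members of 35 with a name, 6 were lower, 2 higher and 18 did not pass. Among all probe sets 4.3% were lower and 3.18% higher. The median change of the list was -0.02. With equal array medians it was 0.10. AT5G59330 had 10.6 and 3.31 in leaves and 707 and 880 in apices, AT4G22490 had 39.8 and 20.0 in leaves and 1366 and 2433 in apices, and AT5G01870 had 13.8 and 28.1 in leaves and 1098 and 1568 in apices. All 3 were bright on both apex arrays of day 14 and dim on both expanding-leaf arrays. In younger apices AT5G59330 had only 23.3 and 57.9, whereas AT4G22490 had 637 and 1223 and AT5G01870 had 456 and 771. AT1G62500 had 26.5 and 12.8 in leaves and 243 and 288 in apices, and AT1G48750 had 63.7 and 58.2 in leaves and 306 and 344 in apices, changes of -3.36 ± 0.31 and -2.28 ± 0.21 (limma adjusted p = 0.00037 and 0.00032).

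The sixth lower lipid-transfer gene, AT3G18280, and the higher ones, AT1G62510 and AT2G10940, were chosen for mention after their values were seen. AT1G62510 had 123.97 and 104 in leaves and 31.4 and 30.7 in apices, and AT2G10940 had 2182 and 2535 in leaves and 1141 and 938 in apices. They rose by 1.64 ± 0.33 and 1.18 ± 0.28 (limma adjusted p = 0.017 and 0.034), while AT3G18280 changed by -1.20 ± 0.27 (limma adjusted p = 0.028). None of these 3 calls held: AT1G62510 was lost without any array of day 14, AT2G10940 also without either mature-leaf array, a filter or the intensity trend, and AT3G18280 without the first apex array, any leaf array, or the trend (adjusted p up to 0.229).

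Several held decreases encode other secreted or surface proteins, picked here from the calls, and held increases of that kind are given further on. The class III peroxidase AT5G58390 had 8.96 and 6.24 in leaves and 336 and 310 in apices and fell by 4.44 ± 0.26 (limma adjusted p = 5.2e-05). AT5G33370, a GDSL lipase known as a cutin synthase, had 14.0 and 4.70 in leaves and 235 and 137 in apices and fell by 3.52 ± 0.36 (limma adjusted p = 0.00075). The thaumatin-like AT2G28790 and AT1G73620, the legume lectin AT1G53070, the cupredoxin AT1G72230 and the aspartyl protease AT5G07030 were among the further held decreases, with changes of -2.94, -2.54, -2.65, -2.92 and -1.68. AT4G29030, for which no role is given here, had 130 and 157 in leaves and 1608 and 1469 in apices, a change of -3.36 ± 0.23 (limma adjusted p = 7.0e-05).

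Single held decreases of other kinds follow. The serine carboxypeptidase-like genes SCPL45 and scpl35 had 70.3 and 110, and 59.5 and 73.9, in leaves, against 441 and 568, and 229 and 272, in apices. They fell by 2.41 ± 0.25 and 1.80 ± 0.25 (limma adjusted p = 0.00075 and 0.0033). The pectin lyase-like AT3G53190 had 223 and 200 in leaves and 673 and 818 in apices, a change of -1.78 ± 0.24 (limma adjusted p = 0.0031). RALFL32, of a family of secreted signal peptides, had 30.9 and 32.7 in leaves and 140 and 220 in apices and fell by 2.21 ± 0.30 (limma adjusted p = 0.0033). The fatty acid desaturase AT1G06100 had 53.1 and 29.8 in leaves and 292 and 230 in apices, a change of -2.48 ± 0.30. The Dof zinc finger AT5G66940 had 28.1 and 24.02 in leaves and 145 and 141 in apices, and the bHLH gene AT1G05710 had 42.5 and 51.0 in leaves and 168 and 184 in apices.

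Among the held calls were a pair of copper amine oxidases, enzymes that oxidise polyamines in the cell wall and peroxisome, with opposite directions. The rest of the family was not counted. AT1G31710 had 61.0 and 39.2 in expanding leaves and 701 and 504 in apices, a change of -3.41 ± 0.27 (limma adjusted p = 0.00017). AT1G31690 had 82.8 and 62.1 in leaves and 4.69 and 2.83 in apices, a change of 2.80 ± 0.38 (limma adjusted p = 0.0033). A second probe set of each gene passed in the same direction as the first, at -1.94 and 1.61. The calls of the first probe sets held, but the apex values of AT1G31690 lay under the 7.7 added to each intensity, and its change was 3.93 with the smaller and 1.67 with the larger amount tried.

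**Figure D2:**
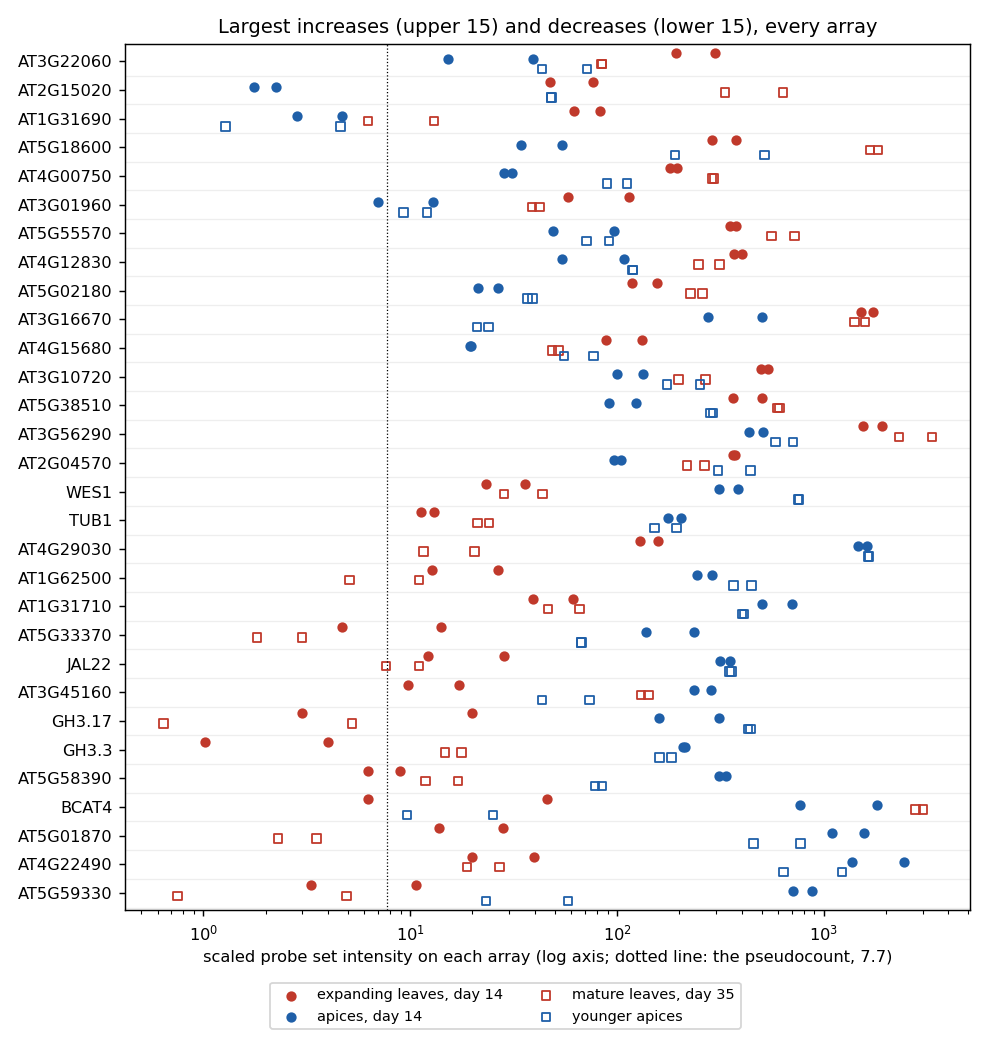
Scaled intensity (horizontal log axis) of the 15 largest held increases and the 15 largest held decreases with a gene name, on every array: filled red circles are expanding leaves, filled blue circles apices of day 14, open red squares mature leaves and open blue squares younger apices. On the day-14 arrays the 2 colours do not overlap for any gene, by the way the genes were chosen. Among the decreases, BCAT4 and AT3G45160 have their mature-leaf squares right of those of younger apices. Among the increases, AT4G15680 is an example with its mature-leaf squares left of those of younger apices.

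Genes of auxin conjugation were lower in the leaves. GH3 enzymes join auxin to amino acids and so lower the free hormone. Beside GH3.3, at 4.001 and 1.01 in leaves and 208 and 214 in apices, WES1 (GH3.5) had 35.9 and 23.3 in leaves and 310 and 384 in apices. WES1 fell by 3.26 ± 0.26 and GH3.17 by 3.75 ± 0.46 (limma adjusted p = 0.00017 and 0.0020), and the calls of GH3.3, WES1 and GH3.17 held. Another member of the family, GH3.9, stood at 47.4 and 43.3 in leaves and 30.1 and 37.7 in apices and did not pass. Among all probe sets 4.3% were lower and 3.18% higher. Of the 12 auxin genes tested, 3 were lower, 1 was higher and 8 did not pass (median -0.28). The higher one was IAA29, a repressor of auxin response, at 75.5 and 41.6 in leaves and 24.01 and 7.96 in apices. Its change of 1.52 ± 0.37 (limma adjusted p = 0.037) was 1.01 without the second apex array and 0.98 with the larger amount added, and the call was lost without that array, any leaf array, a filter or the intensity trend, and with only the 2 groups fitted (adjusted p up to 0.27). The auxin synthesis gene YUC4 had 34.9 and 2.46 in leaves and 50.5 and 59.96 in apices (limma adjusted p = 0.12).

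A part of the cell division genes was lower in expanding leaves. Of 23 mitosis and cytokinesis genes, 9 were lower, none was higher and 14 did not pass, against 4.3% of all probe sets lower. A change below 0 was found for 22 of the 23, with a median of -1.17, against 9824 of all 17837 probe sets. The median intensity of the list was 50.6 and 68.0 on the leaf arrays and 127 and 126 on the apex arrays. TOPII, a topoisomerase that untangles chromosomes, had 91.5 and 201 in leaves and 572 and 409 in apices, and 3xHMG-box2, a protein of mitotic chromosomes, had 180 and 287 in leaves and 751 and 843 in apices. The Aurora kinase AUR2 had 95.8 and 154 in leaves and 316 and 447 in apices, and the spindle checkpoint gene BUBR1 had 19.3 and 49.9 in leaves and 105 and 126 in apices. These 4 fell by 1.57 to 1.77 (limma adjusted p = 0.016 to 0.037). Of 10 kinesins, the motor proteins of spindle and phragmoplast, 3 were lower. AT5G60930 had 59.5 and 97.8 in leaves and 264 and 175 in apices, AT2G22610 had 50.6 and 29.4 in leaves and 105 and 110 in apices, and AT2G28620 had 36.8 and 47.8 in leaves and 105 and 110 in apices. Their changes were -1.40 ± 0.36, -1.31 ± 0.34 and -1.21 ± 0.29 (limma adjusted p = 0.042, 0.043 and 0.035), and the kinesin count was 0 without any single array of day 14 or of mature leaves. No member of these lists held under all alternatives: the mitosis count was 5 with equal medians, 3 with the smaller amount added or without a filter, 4 without the intensity trend, and 0 to 14 without 1 array, at 0 without the second apex array or the first expanding-leaf array.

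DNA replication and chromatin genes gave fewer calls. Of the 5 replication genes tested, none passed the limma test, 2 had an unadjusted p under 0.05, and all 5 had changes below 0, or 4 with equal medians (median -0.81). PRL, a subunit of the replicative helicase, had 158 and 154 in leaves and 430 and 317 in apices, a change of -1.20 ± 0.33 with a limma adjusted p = 0.056. Of 10 core histones, 2 H2B genes were lower (median -0.77), against 4.3% of all probe sets. HTB2 had 107 and 124.3 in leaves and 244 and 414 in apices, and HTB1 had 246 and 301 in leaves and 518 and 548 in apices. The count was 1 with equal medians or without the intensity trend, and 0 without the second apex array or either expanding-leaf array. Of 3 linker histones AT1G06760 was lower, at 366 and 485 in leaves and 776 and 1095 in apices (limma adjusted p = 0.025). That linker histone lost its call, with adjusted p up to 0.208, without the second apex array, any leaf array or the intensity trend, and with equal medians. The beta-tubulin TUB1 had 13.1 and 11.3 in leaves and 205 and 177 in apices, a decrease of 3.32 ± 0.25 that held (limma adjusted p = 0.00011). The other 6 tubulins did not pass, among them TUB7 at -0.98 and TUA6 at 1751 and 2042 in leaves and 2329 and 2428 in apices.

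Ribosomal proteins, which growing cells need, gave no call in the main fit. None of 122 cytosolic ribosomal protein genes passed the limma test. At an unadjusted p under 0.05, 1 was higher and 6 lower. These were smaller shares than the 1700 and 2276 of all 17837 probe sets. Their median change was -0.15, with 92 below 0. With equal medians it was 0.01, with 56 below 0, so no direction could be given, and with quantile normalization 8 were lower.

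Of 33 expansins, xyloglucan enzymes and family 9 endoglucanases tested, 5 were lower, 2 higher and 26 did not pass (median -0.09, and 0.03 with equal medians). Over all probe sets 3.18% were higher and 4.3% lower. With equal medians or without the intensity trend 2 were lower, and without either apex array 1. The endoglucanase GH9B13 had 52.8 and 43.4 in leaves and 189 and 225 in apices, and it fell by 1.94 ± 0.26 (limma adjusted p = 0.0028), the only call of this list that held. GH9B8 had 57.3 and 67.7 in leaves and 213 and 185 in apices, a call lost, with adjusted p up to 0.059, when either apex array or the first expanding-leaf array was left out. EXPA9, an expansin of the kind that loosens walls, had 87.9 and 71.3 in leaves and 26.5 and 27.02 in apices, and the xyloglucan enzyme EXGT-A3 had 288 and 376 in leaves and 110 and 146 in apices. Their changes were 1.33 ± 0.28 and 1.32 ± 0.34 (limma adjusted p = 0.022 and 0.043), and both calls were lost without any array of day 14 or of mature leaves (adjusted p up to 0.206).

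The largest named held increases were smaller than the largest decreases. AT3G22060, a cysteine-rich repeat secretory protein, had 193 and 297 in leaves and 15.2 and 39.4 in apices and rose by 2.91 ± 0.37 (limma adjusted p = 0.0025). The glutaredoxin AT5G18600, of a land-plant class that regulates redox state, had 288 and 377 in leaves and 34.3 and 54.2 in apices. It rose by 2.73 ± 0.39 (limma adjusted p = 0.0044). A second glutaredoxin of that class, AT4G15680, had 88.6 and 132 in leaves and 19.7 and 19.4 in apices and rose by 2.09 ± 0.28 (limma adjusted p = 0.0030). AT2G15020 had 47.6 and 76.3 in leaves but only 2.24 and 1.76 in apices, under the amount added, so its change of 2.81 ± 0.34 was 4.30 with the smaller and 1.58 with the larger amount.

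AT3G21670, a nitrate transporter of the NRT1/PTR family, had 909 and 1017 in leaves and 318 and 274 in apices and rose by 1.68 ± 0.19 (limma adjusted p = 0.0016). AT5G02180, of an amino acid transporter family, had 155 and 118 in leaves and 26.5 and 21.4 in apices and rose by 2.18 ± 0.24 (limma adjusted p = 0.0013). The pectin methylesterase AT3G10720 had 537 and 498 in leaves and 99.8 and 134 in apices, a rise of 2.09 ± 0.26. AT2G04570, a GDSL lipase like the cutin synthase that fell, had 374 and 365 in leaves and 96.6 and 104 in apices, a rise of 1.81 ± 0.23. AT3G16670, a relative of pollen Ole e 1 proteins, rose by 2.10 ± 0.27, with 1519 and 1733 in leaves and 504 and 276 in apices.

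AT5G35970, a helicase-like protein, had 1927 and 1557 in leaves and 590 and 430 in apices and rose by 1.77 ± 0.23 (limma adjusted p = 0.0025). AT1G52870, of the Mpv17 family of organelle membrane proteins, had 1322 and 1207 in leaves and 440 and 352 in apices and rose by 1.66 ± 0.20 (limma adjusted p = 0.0018). AT5G38510, a rhomboid-type membrane protease relative, had 505 and 363 in leaves and 123.6 and 91.2 in apices. AT4G00750, a putative methyltransferase, was dimmer but more even, at 194 and 181 in leaves and 28.5 and 31.0 in apices (2.38 ± 0.22, limma adjusted p = 0.00035). The START-domain gene AT3G23080 and the immune receptor gene AT4G19530, of the TIR-NBS-LRR class, rose by 1.80 ± 0.27 and 1.62 ± 0.24. AT3G56290, for which no role is given here, had 1545 and 1919 in leaves and 509 and 433 in apices. AT4G12830, of the alpha/beta hydrolases, and AT5G55570 and AT3G01960, with no role given here, rose by 2.21 ± 0.29, 2.28 ± 0.30 and 2.37 ± 0.36.

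A pair of other nitrogen transport genes was lower. Of 11 tested in that list, 1 was higher, 2 lower and 8 did not pass (median 0.26). Among all probe sets 3.18% were higher and 4.3% lower. AT1G59740 and AT1G33440, of the same NRT1/PTR family as AT3G21670, had 60.7 and 82.4, and 49.6 and 25.3, in leaves, against 239 and 237, and 102 and 108, in apices. Their changes were -1.65 ± 0.25 and -1.37 ± 0.30 (limma adjusted p = 0.0050 and 0.025). The first call was lost without the second apex array, at a limma adjusted p = 0.052, and the second also without the first apex array, the second expanding-leaf array, either mature-leaf array or a filter (adjusted p up to 0.165).

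Some nuclear genes of photosynthesis were higher in the leaves. Of 18 nuclear photosystem and thylakoid genes, 4 were higher, none lower and 14 did not pass (median 0.61, 17 above 0), against 3.18% of all probe sets higher. The thylakoid genes NdhN and NdhL, of the NDH complex, had 939 and 872, and 926 and 849, in leaves, against 318 and 279, and 350 and 288, in apices. CaS, a thylakoid calcium-sensing protein, had 1425 and 1553 in leaves and 579 and 612 in apices. All 41 tested plastid-encoded photosynthesis genes had changes above 0 (median 0.95), against 8013 of all 17837 probe sets, but none passed the limma test in the main fit. At an unadjusted p under 0.05, 3 of them were higher, a smaller share than the 1700 of all probe sets. Changes above 0 without a call were also found for 20 other plastid genes (median 0.54), with none at that level. The plastid-encoded photosynthesis genes were dim, with a median intensity of 58.8 and 32.2 in leaves and of 29.3 and 16.9 in apices. In mature leaves minus younger apices their median change was -0.87, with none passing either way. The younger-apex arrays lay far apart, with a median intensity of 282.4 and 25.02, against 24.3 and 33.3 in mature leaves. The decrease there thus rests on the first younger-apex array. Of 8 Calvin cycle and photorespiration genes, 3 were higher and all had changes above 0 (median 0.84). AT1G80380, the glycerate kinase that closes photorespiration, had 1485 and 1816 in leaves and 409 and 558 in apices, a change of 1.77 ± 0.32 (limma adjusted p = 0.012). The regenerating enzymes SBPASE and PRK had 4457 and 4745, and 4493 and 4967, in leaves, against 2616 and 2516, and 2547 and 2688, in apices. Their changes were 0.84 ± 0.21 and 0.85 ± 0.22 (limma adjusted p = 0.038 and 0.043). Without 1 array the 4 photosystem calls ran from 0, without the second expanding-leaf array, to 10, and the 3 Calvin cycle calls were 0 without any single array of day 14.

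Of 11 chlorophyll genes none passed the limma test (median 0.48). At an unadjusted p under 0.05, 4 were higher, against 1700 of all 17837 probe sets. CHLM, a methyltransferase of chlorophyll synthesis, had 2718 and 3052 in leaves and 1598 and 1933 in apices (limma adjusted p = 0.13). The leaf mesophyll markers with a named probe set, RCA and LHCB4.2, 2 of 14 listed, summed to 9674 and 10139 in leaves and to 5877 and 6256 in apices. Both genes were bright in both tissues.

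Of 21 sugar transport and sucrose synthesis genes, 3 were higher, 1 lower and 17 did not pass (median 0.53), against 3.18% higher and 4.3% lower of all probe sets. SWEET11, a sucrose exporter of the phloem, had 755 and 502 in leaves and 63.5 and 54.4 in apices and rose by 3.23 ± 0.51 (limma adjusted p = 0.0067). ATSPS4F, a sucrose phosphate synthase, had 129 and 91.4 in leaves and 15.8 and 1.23 in apices and rose by 3.003 ± 0.47 (limma adjusted p = 0.0065). SWEET11 lost its call without the second apex array or the first expanding-leaf array, and ATSPS4F without that leaf array, with adjusted p up to 0.057 and 0.053. SWEET2 had 369 and 577 in leaves and 112 and 142 in apices and rose by 1.81 ± 0.29 (limma adjusted p = 0.0071). SWEET17, a vacuolar fructose transporter, had 59.1 and 33.4 in leaves and 178 and 132 in apices and fell by 1.62 ± 0.29 (limma adjusted p = 0.011). With the first apex array or the second expanding-leaf array left out, neither passed, at adjusted p up to 0.057 and 0.077. SWEET1 had 1205 and 911 in leaves and 667 and 471 in apices and did not pass (limma adjusted p = 0.065).

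**Figure D3:**
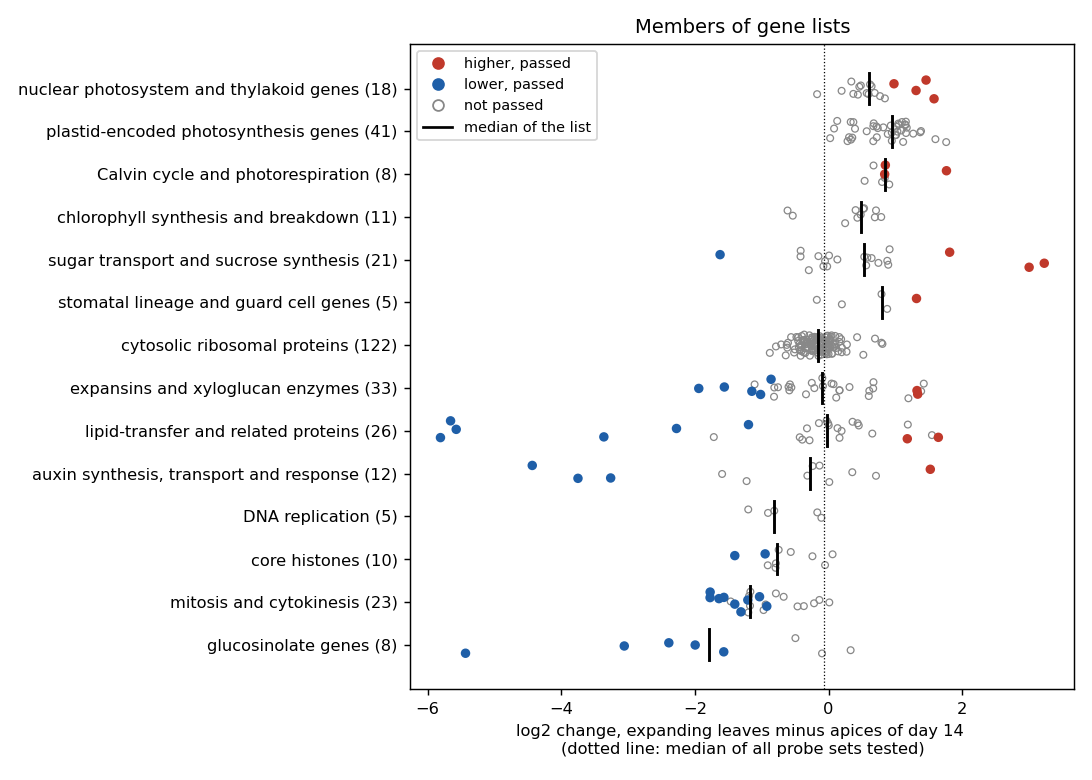
Change of every tested member (points; horizontal axis, log2 expanding leaves minus apices of day 14) of 14 gene lists, filled red where higher and filled blue where lower in leaves with an adjusted p under 0.05, with the median of each list as a black bar and that of all probe sets as a dotted line. The glucosinolate list lies furthest to the left (median -1.78) and the plastid-encoded photosynthesis genes furthest to the right (median 0.95) although none of these passed.

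Developmental regulators gave few calls. Their lists are to be set against 3.18% higher and 4.3% lower over all probe sets. NUB, the JAGGED-related zinc finger protein that promotes growth in young lateral organs, had 5.76 and 12.3 in expanding leaves and 78.4 and 68.1 in apices. It fell by 2.30 ± 0.33 (limma adjusted p = 0.0042), a call that held, with a change of -2.95 with the smaller and -1.46 with the larger amount added. JAG itself had 19.2 and 13.6 in leaves and 40.1 and 41.2 in apices (limma adjusted p = 0.075), and was among the 12 of 13 leaf growth regulators that did not pass. LHW, a bHLH protein of early vascular cells, had 50.7 and 55.6 in leaves and 217 and 272 in apices and fell by 2.04 ± 0.25 (limma adjusted p = 0.0020). It was the only one of 7 cellulose, lignin and vascular genes to pass.

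The stomatal lineage was read at 3 of its steps. SPCH, which starts the lineage, had 179 and 199 in leaves and 219 and 209 in apices, and MUTE, which ends its stem cell phase, had 32.2 and 30.2 in leaves and 29.3 and 23.3 in apices. Neither passed. FMA, which acts at the last division to guard cells, had 94.1 and 118 in leaves and 38.8 and 37.4 in apices and rose by 1.30 ± 0.28 (limma adjusted p = 0.024). It was the 1 of 5 stomatal genes to pass, and the call was lost without any array of day 14 or of mature leaves (adjusted p up to 0.148).

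Among 5 trichome genes, TRY was higher and SIM lower. TRY, a small MYB protein that keeps neighbours of a trichome from becoming one, had 54.7 and 56.4 in leaves and 20.2 and 23.1 in apices (1.11 ± 0.26, limma adjusted p = 0.030). SIM, a cyclin-dependent kinase inhibitor, had 23.2 and 29.8 in leaves and 53.9 and 90.4 in apices (-1.19 ± 0.30, limma adjusted p = 0.041). YAB5, of the YABBY family of lateral organs, had 87.1 and 89.3 in leaves and 45.5 and 34.1 in apices (1.03 ± 0.25, limma adjusted p = 0.038), and it was the only 1 of 5 organ polarity genes to pass. These 3 calls were lost without any array of day 14 or of mature leaves and without a filter, those of SIM and YAB5 also without the intensity trend, and that of SIM with equal medians, quantile normalization or only the 2 groups fitted (adjusted p up to 0.325). AGL24, a MADS protein of the floral transition, had 2.24 and 2.62 in leaves and 30.7 and 42.5 in apices. Its change of -2.12 ± 0.36 (limma adjusted p = 0.0091) was -3.39 with the smaller and -1.09 with the larger amount added, and it did not pass without the second apex array, at a limma adjusted p = 0.105.

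Of 6 meristem and boundary genes tested, none passed the limma test, 1 had an unadjusted p under 0.05, and the median was -0.20. CLV3, the stem cell peptide and the only 1 of 8 meristem markers with a named probe set, had 2.24 and 3.10 in leaves and 4.11 and 9.88 in apices and was too dim to be tested. STM, KNAT1, WUS and the other meristem markers were not analysed here, so the apex label was not checked against them. No named probe set was used for the phloem, xylem or flower markers.

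Several further lists, some of them of stress or ageing genes, held no call. With limma, none passed of 14 senescence genes, 9 cold and dehydration genes, 15 cytochrome P450s, 12 tetraspanins, 7 defence genes, 6 starch genes and 5 gibberellin genes, and their medians ran from -0.45 for gibberellin to 0.27 for tetraspanins. At an unadjusted p under 0.05 the counts were 3, 3, 2, 2, 0, 1 and 0, in the order given, against 3976 of all 17837 probe sets.

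The same genes were read between mature leaves and younger apices, whose arrays entered the day-14 comparison through the filter and the estimate of the spread but not through its means. They differ from the day-14 tissues in age as well as in organ, and both comparisons share that estimate. In this second comparison 33.6% of probe sets passed. Of the probe sets higher in expanding leaves, 480 (84.7%) were also higher in mature leaves than in younger apices, against 39.1% of all probe sets, and 365 (64.4%) passed in that direction, against 12.1%. Of the 767 lower ones, 629 (82.0%) were also lower in mature leaves, against 60.9% of all, and 489 (63.8%) passed, against 21.5%. With equal array medians the shares in the same direction were 88.9% and 75.2%. In that setting 55.35% of all probe sets were higher in mature leaves than in younger apices. Without the first array of younger apices the shares were 86.1% and 82.7%, and 36.04% of all probe sets were higher in mature leaves. Across all 17837 probe sets the changes had a Pearson r of 0.355, given as a description.

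Mature leaves went further than expanding leaves for several genes. PYK10 had 8.72 and 13.4 in mature leaves and 2652 and 2917 in younger apices, so its level in expanding leaves lay between. AT4G29030 had 11.6 and 20.5 in mature leaves and 1655 and 1635 in younger apices. The glutaredoxin AT5G18600 had 1823 and 1676 in mature leaves and 517 and 191 in younger apices, whereas AT4G15680 had 52.2 and 48.3 in mature leaves and 77.1 and 55.5 in younger apices and did not pass there. Of the 23 mitosis genes, 20 were lower in mature leaves than in younger apices.

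**Figure D4:**
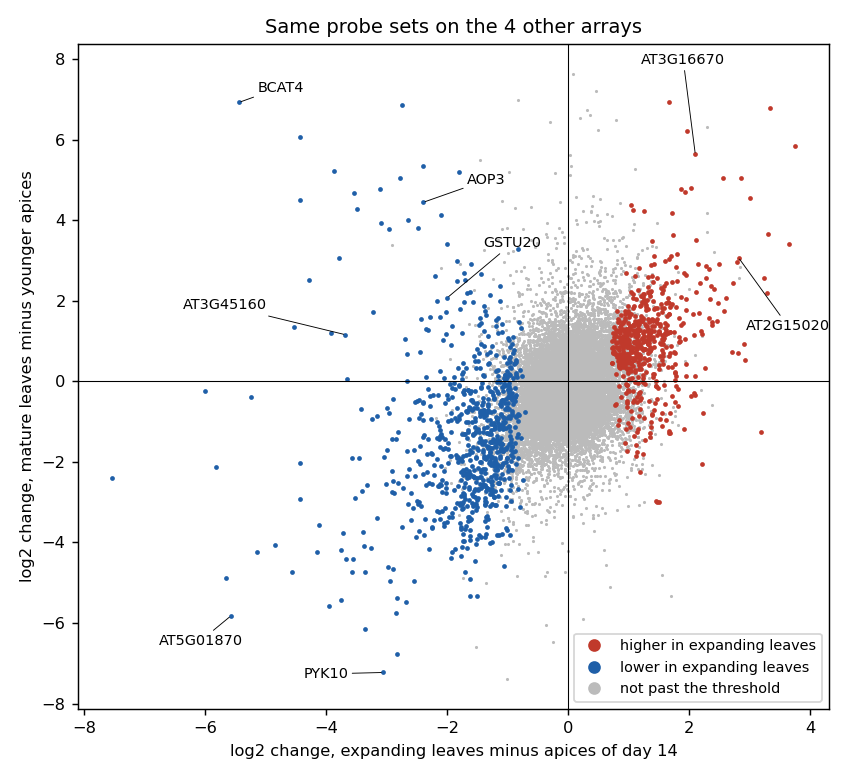
Change of each probe set on the 4 other arrays (vertical axis, log2 mature leaves minus younger apices) against its change on the arrays of day 14 (horizontal axis, log2 expanding leaves minus apices), in red where higher and in blue where lower in expanding leaves. Most red points lie above 0 (84.7%) and most blue points below 0 (82.0%), and BCAT4 and AOP3 stand in the upper left.

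A smaller set ran in opposite directions in these 2 comparisons. Of the lower probe sets 76 (9.91%) passed as higher in mature leaves, against 12.1% of all probe sets. Of the higher ones 37 (6.53%) passed as lower, against 21.5%. Both shares lay below those of all probe sets. Among held calls the numbers were 25 of 129 (19.4%) and 2 of 51 (3.92%), of which 4 and 0 carried a gene name. BCAT4 had 2777 and 3018 in mature leaves and 25.2 and 9.66 in younger apices, a change of 6.92 ± 0.59 (limma adjusted p = 3.6e-05). AOP3 had 3214 and 3009 in mature leaves and 125.03 and 147 in younger apices, a change of 4.45 ± 0.33. BCAT4 and AOP3 had their low values in expanding leaves and younger apices and their high values in apices of day 14 and mature leaves. GSTU20 and UGT74B1 shared this order, at 1883 and 2349, and 519 and 661, in mature leaves, against 371 and 654, and 144 and 143, in younger apices. AT3G45160 and AT5G05960 were the other named held genes of this kind, with changes of -3.68 and -1.92 on the day-14 arrays and 1.16 and 1.36 on the others.

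Of the 180 held calls, 101 had no gene name. The largest decrease of all was probe set 253660_at, with 4.80 and 2.78 in leaves and 1945 and 2273 in apices (-7.53 ± 0.50, limma adjusted p = 7.0e-05). The next was 266383_at, with 4.64 and 2.62 in leaves and 460 and 1112 in apices. Younger apices were much dimmer for both, at 29.5 and 112 for 253660_at and at 1.02 and 20.4 for 266383_at. The largest increases were 248566_s_at, with 645 and 380 in leaves and 30.2 and 29.5 in apices, and 254250_at, with 183 and 176 in leaves and 11.8 and 3.84 in apices. The name table used here does not list these probe sets.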

How the data were processed

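The deposited table holds 1 intensity per probe set and array, on a linear scale, made by the authors from ATH1 scans with MAS5, per the submitters' processing notes; its median is 50 on every array, and how that was set is not given in the sources used here. Each array was rescaled to a common mean of 133 after trimming 2% of values at each end, over the 22746 non-control probe sets. The amount of 7.7, the 20th percentile of all values, was added before log2. Probe sets above the 30th percentile on at least 2 arrays were tested, which left 17837 and set 4909 aside. All 8 arrays entered 1 fit of limma 3.58.1 in R 4.3.3 (lmFit and eBayes with an intensity trend) with 4 groups, 4 residual degrees of freedom and no block, and p-values were adjusted by Benjamini and Hochberg's method. No set test was run, and the number of arrays limits the precision.

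Gene names came from the platform annotation, which listed 14016 of the non-control probe sets. Of these, 13513 had 1 gene, 503 had several and stayed unnamed, and 13436 of those with 1 gene were matched to RefSeq TAIR10.1 names. Probe sets of 1 gene were kept apart. The genes given in the text are a part of those among the 15 largest held increases or decreases, the largest calls of a gene list (up to 4), held calls opposite in mature leaves, or cell type markers; further held genes, well-known members that did not pass and those said to be chosen after their values were seen were added. The genes, lists and markers were chosen with earlier results of these data known. Alternatives were equal array medians, quantile normalization, a smaller or larger added amount (1.12 or 27.6), no filter or one at the 50th percentile, no trend, a robust fit, only the 2 groups compared, the replicate number as a block, each array left out, a 2-fold minimum and 1 probe set a gene. The 2-fold minimum and the fit with 1 probe set a gene were not among the 18 alternatives that a held call had to pass. Same-numbered arrays of expanding leaves and apices of day 14, the groups compared, deviated together with r = 0.356. Those of the other pairs of groups did so with r from -0.089 to 0.090. No pairing is stated in the labels, so the main fit had no block. Whether same-numbered arrays of day 14 share a source was not tested. No sequences are shown.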

Additional observations from a re-analysis of the deposited data

How the results depend on the processing

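With 2 arrays a group, the number of calls moved with single arrays. Between expanding leaves and apices of day 14, calls numbered 264 to 2464 without 1 array, with 86 to 1114 higher and 178 to 1350 lower. The lowest counts came without the second Apex_14DAS array, and the highest without the first array of younger apices. Without the intensity trend 862 passed (301 higher), and with 1 probe set a gene, named genes only, 624 passed (280 higher, 344 lower), of fewer features tested. The replicate block gave 1362 calls over all 8 arrays, and 3714 (1661 higher, 2053 lower) in a fit to the 4 arrays of the comparison, chosen after the data were seen; the shared number is no stated pairing. In the block fit to 4 arrays, counts of some lists rose too. Higher were 17 plastid-encoded photosynthesis genes, 8 Calvin cycle and photorespiration genes, 14 nuclear photosystem and thylakoid genes and 5 chlorophyll genes. Lower were 17 mitosis and cytokinesis genes and 13 cytosolic ribosomal proteins. Without a filter 947 passed in the main comparison. Of the 637 probe sets with a gene name that passed, 79 held under all 18 alternatives. The 117 named genes followed singly were picked to take in all 79, so their share says nothing on how often calls held. The other 38 of the 117 lost their call in at least 1 alternative, and none of the 117 changed direction. Between mature leaves and younger apices, calls without 1 array numbered 2801 to 6551 (1049 to 2860 higher, 1752 to 3691 lower). Equal array medians gave 3803 higher and 2207 lower there, and named genes only gave 3196 (1085 higher, 2111 lower). Where fewer features or arrays do not account for a change, the cause was not tested. Groups of 2 are too small to look for outlying arrays, and intensities under the added 7.7 carry little information on size of change.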
